A study of Mus musculus with 7 samples.

Results

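The Zfp genes of mouse chromosome 7 code for zinc finger proteins and were compared between secondary-follicle oocytes of Mfn2 knockout (KO) and wild-type (WT) mice. The members are the protein-coding genes of chromosome 7 named Zfp plus a number, with Zfp36 set aside. This gave 85 of the 26019 genes in the table, and 351 protein-coding genes carry such a name over all chromosomes. The rule reads the gene name, the biotype and the chromosome. The group was nevertheless proposed with results of this KO and WT comparison known, so it is treated as selected on its fold changes and p-values, and the counts of changed members describe these libraries.

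Each library was made from 5 pooled oocytes taken from enzymatically digested secondary follicles, amplified by Smart-Seq2 (full-length cDNA from very small amounts of RNA) and sequenced as paired reads. The WT group holds 4 libraries and the KO group 3, all from C57BL/6J mice with no treatment named in the labels. The title and the design text give the knockout as Mfn2-/-, whereas the genotype label and the collection protocol give Mfn1-/-. Age is given as 8 weeks in the protocol and as P1 in the age label, and the design text counts 3 mice per group without tying libraries to mice. The labels do not say which cells lost the gene or which promoter drove the deletion. The p-values therefore measure the spread between these samples, which may be technical.

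Zinc finger genes of this kind encode proteins with tandem C2H2 fingers, each finger reading a short stretch of DNA. Many also carry a KRAB box, a short domain that recruits the corepressor TRIM28 (also called KAP1) and through it the histone H3K9 methyltransferase SETDB1, which places repressive chromatin on retrotransposons and at imprinted regions. These genes arose by repeated tandem duplication and lie in clusters, several of them on mouse chromosome 7. Oocytes hold transcripts of many such genes, and maternal ZFP57 and TRIM28 are known for keeping imprints in the early embryo.

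The promoters of Zfp977, Zfp975 and Zfp936 are printed first because these neighbours, all higher in KO oocytes, have some of the most similar promoters among the members. Each runs from 250 bases before to 50 bases after the RefSeq start on GRCm38.p6, 5′ to 3′ on the gene's strand. They lie at chr7:42592496-42592795 (minus strand), chr7:42692669-42692968 (minus strand) and chr7:43177340-43177639 (plus strand). Capitals mark the longest stretch that all 3 share without a mismatch, 23 bases.
Zfp977: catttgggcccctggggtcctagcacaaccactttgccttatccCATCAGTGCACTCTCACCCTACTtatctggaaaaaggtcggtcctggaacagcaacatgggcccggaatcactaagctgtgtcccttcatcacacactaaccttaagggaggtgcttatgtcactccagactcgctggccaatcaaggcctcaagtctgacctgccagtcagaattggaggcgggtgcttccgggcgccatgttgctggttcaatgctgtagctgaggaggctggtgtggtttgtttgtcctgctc
Zfp975: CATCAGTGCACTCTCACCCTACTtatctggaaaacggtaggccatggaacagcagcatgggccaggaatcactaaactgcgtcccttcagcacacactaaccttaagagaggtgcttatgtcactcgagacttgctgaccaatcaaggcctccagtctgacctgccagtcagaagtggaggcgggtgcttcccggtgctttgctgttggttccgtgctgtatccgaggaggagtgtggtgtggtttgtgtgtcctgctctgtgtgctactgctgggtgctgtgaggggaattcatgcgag
Zfp936: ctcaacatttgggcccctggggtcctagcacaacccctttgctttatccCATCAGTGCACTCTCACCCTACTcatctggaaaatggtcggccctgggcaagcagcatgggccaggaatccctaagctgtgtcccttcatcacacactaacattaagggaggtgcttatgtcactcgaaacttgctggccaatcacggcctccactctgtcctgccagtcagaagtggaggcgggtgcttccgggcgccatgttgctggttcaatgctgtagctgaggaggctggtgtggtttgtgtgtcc
The RefSeq start of Zfp936 lies 63361 bases inside the gene as the deposited table places it. Of the 85 members, 77 had a promoter in the RefSeq set, and 8 of their 2926 pairs reached a local alignment score of 120. Zfp977 and Zfp936 were 92.9% identical over 295 bases, Zfp977 and Zfp975 89.5% over 256, and Zfp975 and Zfp936 88.5% over 251. Zfp976 shares this promoter type (90.5% identical to Zfp977 over 283 bases) but was near the limit of detection, from 1.08 to 6.39 normalised counts in WT and 3.63 to 8.75 in KO libraries. Members with such similar promoters thus ranged in KO oocytes from 5.64 (Zfp976) to 759 (Zfp936) normalised counts on average.

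A second promoter feature recurs in other clusters, and the promoters of Zfp108, Zfp109 and Zfp260 are printed to show it. They lie at chr7:24254544-24254843 (plus strand), chr7:24237549-24237848 (minus strand) and chr7:30094826-30095125 (plus strand). Capitals mark matches to TGGGAANTGTAGT, searched on both strands. This motif grew from TGTAGT, the 6 letters whose share of the member promoters exceeded that of all promoters most (37.7% against 10.5%), by keeping neighbouring positions where 1 base held at least 75% of the member matches.
Zfp108: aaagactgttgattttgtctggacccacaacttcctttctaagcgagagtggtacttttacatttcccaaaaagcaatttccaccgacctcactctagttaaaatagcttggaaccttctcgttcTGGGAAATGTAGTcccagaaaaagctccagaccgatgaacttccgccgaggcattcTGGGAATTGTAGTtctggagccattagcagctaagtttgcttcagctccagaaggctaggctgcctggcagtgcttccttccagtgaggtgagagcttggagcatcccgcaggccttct
Zfp109: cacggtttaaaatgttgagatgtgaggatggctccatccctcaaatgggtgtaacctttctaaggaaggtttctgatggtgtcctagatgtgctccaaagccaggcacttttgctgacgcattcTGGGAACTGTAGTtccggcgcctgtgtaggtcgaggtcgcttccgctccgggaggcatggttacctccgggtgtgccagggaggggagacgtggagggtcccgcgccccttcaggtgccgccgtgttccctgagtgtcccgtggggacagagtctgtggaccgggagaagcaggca
Zfp260: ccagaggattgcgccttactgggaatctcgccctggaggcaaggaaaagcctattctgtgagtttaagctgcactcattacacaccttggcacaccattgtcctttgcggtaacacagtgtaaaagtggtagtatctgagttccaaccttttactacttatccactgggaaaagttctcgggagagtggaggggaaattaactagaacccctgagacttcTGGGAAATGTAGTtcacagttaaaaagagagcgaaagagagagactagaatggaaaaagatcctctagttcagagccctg
The motif was thus chosen on these promoters. It matched in 19 of the 77 member promoters (24.7%), in 8.96% of the 212 promoters of Zfp genes on other chromosomes, and in 1.47% of all 14636 RefSeq promoters. Its matches lay mainly in 2 groups of neighbours, with 10 of 14 promoters around Zfp260 and 6 of 11 around Zfp108, and none of the 10 in the group that holds Zfp975. Of the 17 tested members with the motif 3 were called higher (median log2 fold change 0.14), and of the 55 without it 11 were (median 0.25). The share of all tested genes called higher was 3.09%, and 3.63% were called lower. On other chromosomes, 3 of 19 tested Zfp genes with the motif were called higher (median 0.67). Without it, 28 of 180 were (median 0.31). The order of the medians was thus reversed there, and neither difference was tested. The search spelled out no binding factor, and a match is a description of letters. Of general promoter letters, CCAAT stood in 40.3% of member promoters and 38.5% of all, GGGCGG in 37.7% against 53.3%, CANNTG in 71.4% against 67.1% and TATAAA in 6.49% against 9.91%. TAATTG stood in none of the 77 member promoters and in 5.99% of all. The promoters of the members held a median of 15 CG pairs, those of the 14 called members 7.5, and all promoters 17.

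The libraries held 6676076 to 8343915 reads counted to genes, recovered from the deposited values, and 19518 to 20663 genes with a read. The size factors ran from 0.914 to 1.10, so a normalised count of 1 stands for about 1 read. Mfn2 fell from 28.7 ± 9.56 (SD, n = 4) in WT to 6.49 ± 1.70 (n = 3) in KO libraries, with every KO library under every WT library (log2 fold change -1.94 ± 0.40 SE, adjusted p = 0.00571). Mfn1 stood at 289 in WT and 330 in KO libraries (adjusted p = 0.499), so of the 2 labelled targets Mfn2 was the lower transcript. Of 11 oocyte markers in the table all were detected in every library. Among them Ddx4 (log2 fold change 1.26, limma adjusted p = 0.00287) and Dazl (0.40, limma adjusted p = 0.0393) were called higher, 8 were positive and the median was 0.33, and the part of this in the members' values was not tested. The summed granulosa markers, 15 genes of the somatic cells around the oocyte, reached 617 to 728 in WT libraries and 677, 1009 and 929 in KO 1, KO 2 and KO 3. Inha, the inhibin alpha subunit of granulosa cells, was at 11.9 to 66.7 in WT and at 54.5, 395 and 338 in the KO libraries. The other abundant markers of the sum showed no such step. Cdh2 averaged 213 in WT and 212 in KO libraries, Nr5a2 182 and 194, and Cyp19a1 179 and 78.2. The higher sums of KO 2 and KO 3 thus came mainly from Inha. Of the 13 tested granulosa markers 10 were positive (median log2 fold change 1.48), none was called higher and 1, Cyp19a1, was called lower. Among all tested genes 3.09% were called higher and 3.63% lower. Foxl2, Inhbb, Gja1 and Wt1 passed the filter described below only with KO libraries counted, so this median carries that selection. Inhbb was at 0 in all WT libraries. KO 2 and KO 3 carried more Inha than any other library, and the part of granulosa RNA in the values below was not tested apart from the fits named beside them. Markers of theca and stroma summed to 12.7 to 29.8, those of immune cells to 14.2 to 27.3 and those of endothelium to 164 to 225, without separating the groups.

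Most members were transcribed in the oocyte, at very different levels. In WT oocytes 22 members had a mean under 10 normalised counts, 34 from 10 to 100, 27 from 100 to 1000, and 2, Zfp296 and Zfp108, over 1000. Per kilobase of merged exon, the WT level was highest for Zfp296 (1361), followed by Zfp108 (409), Zfp511 (192), Zfp524 (165) and Zfp936 (149). Zfp296 encodes a zinc finger protein known from pluripotent and germ cells. The filter, which asked for 1 normalised count or more in 3 or more libraries, kept 79 of the 85 members. Zfp128, Zfp112, Zfp114, Zfp536, Zfp658 and Zfp764 did not pass it, and none of these reached 4 normalised counts in any library. Zfp30, Zfp59 and Zfp747 passed only with KO libraries counted, so their fold changes carry that selection.

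KO oocytes held more transcript of a subset of these genes and less of none at the threshold used. In limma on log2(value + 1), fitted over all 19227 genes that passed the filter, 14 of the 79 tested members were called higher at a Benjamini-Hochberg adjusted p under 0.05. Over all tested genes 3.09% were called higher and 3.63% lower (6.71% in all). None of the members was called lower. At an unadjusted p under 0.05 there were 25 higher and 6 lower members, and edgeR on the recovered reads called 15 members. The members' log2 fold changes ran from -0.96 to 2.70 with a median of 0.21, against -0.01 over all tested genes, and 51 were positive and 28 negative. In 25 members every KO library lay above every WT library, which held for 9.37% of all tested genes, and in 3 every KO library lay below (9.83% of all tested genes). Because the group was proposed with this contrast known, nothing is read from these shares.

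**Figure D1:**
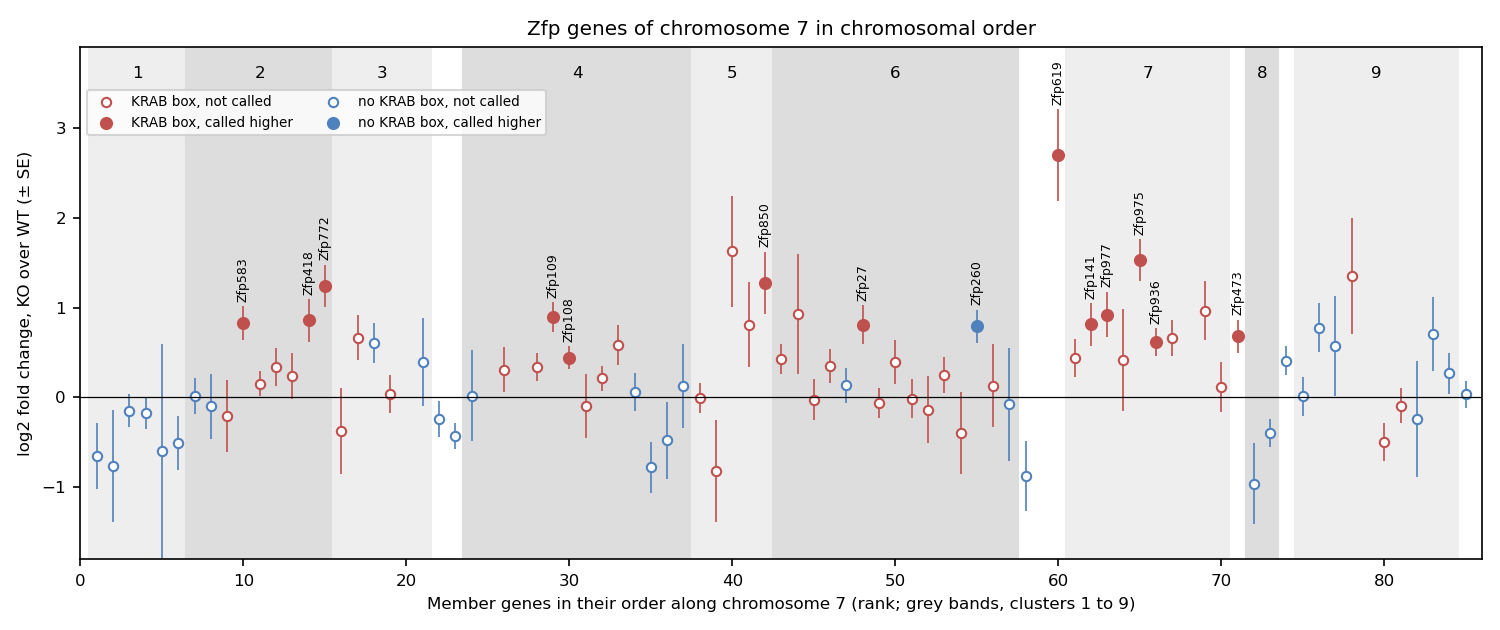
Log2 fold change of KO over WT (vertical axis, ± SE from limma) of the 79 tested members in their order along chromosome 7 (horizontal axis, rank). Red marks a KRAB box and blue none, filled circles are the 14 members called higher, and grey bands are the 9 positional clusters. The called members are spread over several clusters, with 4 in cluster 7 and none in clusters 1, 3, 8 and 9.

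Summed over all 85 members, the WT libraries held 12305, 13296, 12393 and 11493 normalised counts and the KO libraries 13865, 13687 and 14093. The groups did not overlap on this scale. As a share of each library's counts they did, at 0.154% to 0.187% in WT and 0.180% to 0.203% in KO libraries. The 14 called members alone summed to 2678 to 3023 in WT and to 4063, 4541 and 5102 in KO libraries. They were picked as higher in these same libraries, so the gap between these sums follows from that choice.

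In these libraries the members with a KRAB box had higher fold changes than those without one. The KRAB box and the fingers were read from the coding sequences of the GENCODE annotation, and this split was chosen after values had been seen, so it is given without a test. A KRAB box was found in 53 of the 85 members. Of the 48 tested KRAB members 13 were called higher, 36 had a positive log2 fold change and the median was 0.40. Of the 31 tested members without a KRAB box 1, Zfp260, was called higher, 15 were positive and the median was -0.08. Relative to the mean of the WT libraries, the median deviation of the tested KRAB members was 0.33, 0.41 and 0.61 log2 units in KO 1, KO 2 and KO 3, and that of the members without a box -0.03, -0.09 and -0.13. The median of the KRAB members was thus above that of the others in each KO library. Each WT library was set against the mean of the other WT libraries in the same way. The order was the same in WT 1 (-0.03 against -0.16), WT 3 (0.02 against 0.003) and WT 4 (0.03 against -0.09). In WT 2 it was reversed (0.12 against 0.17). Fingers were counted only with 2 residues between the cysteines, 12 from cysteine to histidine and 3 to 5 between the histidines. Fingers of other spacing were not counted. Counted this way, the called members had 8 to 33 fingers (median 12), and the tested members that were not called 1 to 27 (median 11).

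Members whose starts lie within 1 Mb of the next formed 9 clusters with 77 members, and 8 members stood alone. The group with most called genes was the 7th in chromosomal order, from Zfp788 to Zfp819 (chr7:41633203-43618285). All of its 10 members carry a KRAB box, and Zfp936 was its most abundant member per kilobase. Its 9 tested members had positive log2 fold changes, from 0.12 to 1.53 (median 0.66), and 4 of them rose: Zfp141, Zfp977, Zfp975 and Zfp936. The members of this cluster had a median GC content of 39.9%. After the GC trend was removed within each library, described below, Zfp141, Zfp977 and Zfp936 were no longer called, while Zfp975 was. Summed over the cluster, the WT libraries held 1027, 1036, 994 and 1028 normalised counts and KO 1, KO 2 and KO 3 held 1305, 1586 and 2128. Every KO library lay above the narrow WT range, and KO 3 lay farthest. Of the 14 tested genes that lie between these members and are not members, none was called (median log2 fold change -0.17).

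Zfp975 (ENSMUSG00000069727.5, chr7:42660105-42692742, minus strand) encodes a KRAB protein with 14 fingers. Its normalised counts were 53.4, 55.4, 51.4 and 48.7 in the WT libraries and 109.9, 149 and 214 in KO 1, KO 2 and KO 3. All KO libraries stood above the WT libraries, which differed little among themselves, and the KO libraries were spread. The log2 fold change was 1.53 ± 0.23 (SE, limma adjusted p = 0.000687), the smallest p of any member. In its transcripts 17.1% of the 75-base stretches also occur in other genes, so a part of its reads could belong to relatives.

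Zfp936, a KRAB gene with 11 fingers, was the most abundant called member of that cluster. It was at 499, 493, 491 and 464 in WT and at 619, 680.0 and 977 in KO libraries (log2 fold change 0.61 ± 0.16, limma adjusted p = 0.0226). Zfp977, also a KRAB gene with 11 fingers, was at 47.7, 55.4, 89.7 and 67.2 in WT and at 103, 100.003 and 171 in KO libraries (0.92 ± 0.25, limma adjusted p = 0.0319). In both genes the groups did not overlap and KO 3 was the highest. Zfp141 ranged from 65.4 to 106 in WT and from 97.2 to 184 in KO libraries (0.81 ± 0.24, limma adjusted p = 0.0436), and it was the only called member whose groups overlapped, by KO 1. Zfp715 of the same cluster fell just outside the threshold, at 128 to 147 in WT and 149.9, 246 and 266 in KO libraries (0.66 ± 0.20, limma adjusted p = 0.0514).

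**Figure D2:**
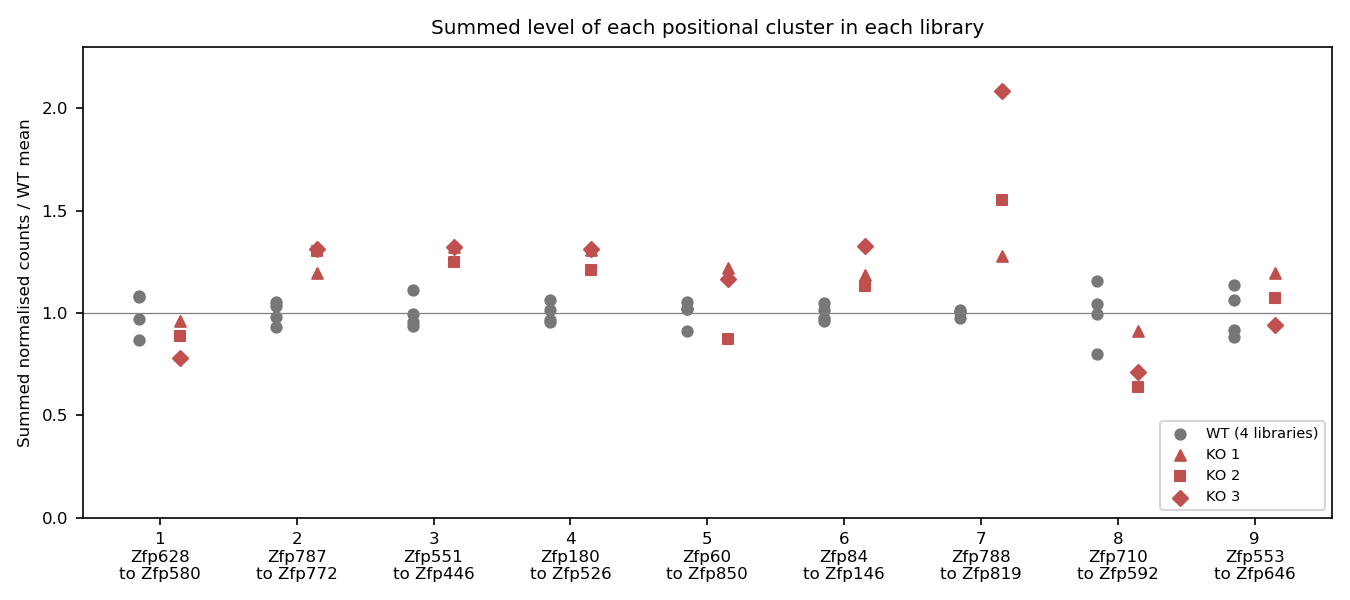
Summed normalised counts of the members of each positional cluster, divided by the cluster's WT mean (vertical axis), in each library (grey circles, 4 WT libraries; red symbols, KO 1 to KO 3). Cluster 7, from Zfp788 to Zfp819, lies farthest above the WT libraries, at 1305 to 2128 normalised counts against 994 to 1036.

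Cluster 2, from Zfp787 to Zfp772 (chr7:6131491-7209998), held 9 members and 3 called genes, Zfp583, Zfp418 and Zfp772, all with a KRAB box. Zfp772 was at 47.7, 55.4, 38.3 and 56.3 in WT and at 104, 145 and 105 in KO libraries (log2 fold change 1.24 ± 0.23, limma adjusted p = 0.00293). No WT library came near the KO libraries. Zfp583 was at 112, 89.5, 96.3 and 125 in WT and at 177, 178 and 205 in KO libraries (0.83 ± 0.19, limma adjusted p = 0.0120). Zfp418 was at 43.9, 52.2, 57.0 and 46.6 in WT and at 79.9, 79.1 and 118 in KO libraries (0.86 ± 0.24, limma adjusted p = 0.0333). For these 3 genes no KO library reached down to a WT library. The summed cluster was at 932 to 1052 in WT and 1194 to 1314 in KO libraries, and Zfp78, its most abundant member per kilobase, stood at 460 ± 26.2 and 511 ± 26.5 (log2 fold change 0.15, limma adjusted p = 0.568).

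Cluster 4, from Zfp180 to Zfp526 (chr7:24081924-25227507), held 14 members and contains the neighbours Zfp109 and Zfp108 that share the promoter motif. Zfp109 (chr7:24227572-24237560) was at 155, 216, 209 and 183 in WT and at 342, 380.0 and 337 in KO libraries (log2 fold change 0.89 ± 0.17, limma adjusted p = 0.00293). The KO libraries lay close together and well above the WT libraries. Zfp108, the most abundant KRAB gene of the group, ranged from 1049.6 to 1192 in WT and from 1376 to 1604 in KO libraries (0.44 ± 0.13, limma adjusted p = 0.0375). Its groups did not overlap, with a smaller step than that of Zfp109. In the same cluster Zfp575, which has no KRAB box, was at 36.2 to 44.4 in WT and 19.7 to 24.5 in KO libraries without overlap (-0.78 ± 0.28, limma adjusted p = 0.102), and it was not called.

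Cluster 6, from Zfp84 to Zfp146 (chr7:29768552-30169750), held 15 members, most with the promoter motif, and 2 called genes. Zfp260, the single called member without a KRAB box, was at 133, 137, 111 and 121 in WT and at 189, 212 and 259 in KO libraries (log2 fold change 0.79 ± 0.18, limma adjusted p = 0.0122). Zfp27 was at 65.8, 71.4, 69.2 and 49.8 in WT and at 96.3, 115 and 126 in KO libraries (0.81 ± 0.22, limma adjusted p = 0.0308). Both genes were higher in all KO libraries, yet the cluster's median was 0.14. Zfp568, known for silencing an Igf2 promoter in the embryo, was at 112 ± 18.4 in WT and 112 ± 27.5 in KO libraries (-0.01). Zfp383, the most abundant member per kilobase, was at 224 ± 23.5 and 214 ± 3.92.

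Cluster 5, from Zfp60 to Zfp850 (chr7:27731389-28014115), held 5 KRAB genes. Zfp850 was at 9.53, 29.8, 22.4 and 18.4 in WT and at 45.4, 48.2 and 45.9 in KO libraries (log2 fold change 1.28 ± 0.35, limma adjusted p = 0.0301). The KO libraries were nearly equal while the WT libraries were spread. Zfp60, by far the most abundant of the cluster, was at 365 ± 31.1 in WT and 368 ± 73.2 in KO libraries (-0.01).

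Of the 8 members that stand alone, Zfp619 and Zfp473 were called. Zfp619 (chr7:39517766-39540420), which has 33 fingers, the most of any member, was at 0.953, 1.07, 2.80 and 2.17 in WT and at 15.4, 15.5 and 17.5 in KO libraries. This is about 1 to 3 reads per WT library, and the KO libraries agreed closely with each other. Its log2 fold change of 2.70 ± 0.51 (limma adjusted p = 0.00303), the largest of the members, is on the log2(value + 1) scale, which understates changes of such low genes. Zfp473, whose gene overlaps the kinase gene Vrk3, was at 434, 494, 521 and 340.1 in WT and at 525, 912 and 739.5 in KO libraries (0.68 ± 0.18, limma adjusted p = 0.0337). KO 1 lay just above the highest WT library. Vrk3 was also called higher (0.83 ± 0.22, adjusted p = 0.0262), and since the library kit does not mark strand, reads from the overlap cannot be told apart. Of the 75-base stretches of Zfp473 transcripts 1.28% also occur in other genes, mainly in Vrk3.

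**Figure D3:**
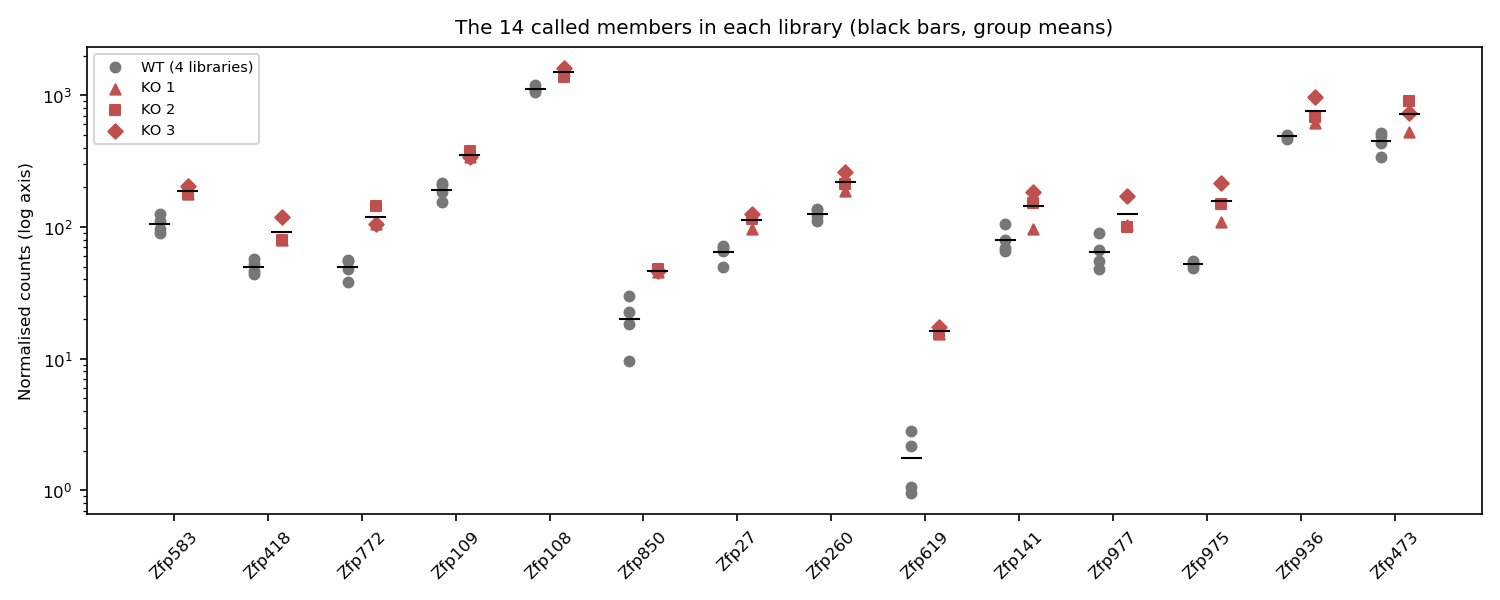
Normalised counts (log axis) of the 14 called members, in chromosomal order, in each library (grey circles, WT; red symbols, KO 1 to KO 3) with group means as black bars. Groups overlap for Zfp141 alone, and Zfp619 is the called member with the lowest WT level, 0.953 to 2.80.

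The remaining clusters held no called member. All 6 members of cluster 1, from Zfp628 to Zfp580 (chr7:4915217-5053723), lack a KRAB box and had negative log2 fold changes, from -0.76 to -0.15 (median -0.55). In none of them did every KO library lie below every WT library. Zfp579 reached at most 3.81 normalised counts. Zfp784 was at 9.53, 3.20, 10.3 and 2.17 in WT and 0.908, 37.3 and 0 in KO libraries (-0.59 ± 1.19). Its mean was thus higher in KO (12.7) than in WT libraries (6.29). Of the stretches in Zfp784 transcripts 94.7% also occur in other genes, mainly in Zfp865. The most abundant member of cluster 1 per kilobase, Zfp524, was at 288, 246, 229 and 185 in WT and 229.8, 224 and 184 in KO libraries, with overlapping groups. In cluster 3, from Zfp551 to Zfp446, the median was 0.39 over 5 tested members, and Zfp110, its most abundant member per kilobase, was at 88.1 ± 13.8 and 90.4 ± 11.6. In cluster 8 the pair Zfp710 and Zfp592 had -0.96 and -0.40, and in cluster 9, from Zfp553 to Zfp646, the median was 0.27 over 9 tested members. Zfp592 was at 668 ± 97.1 in WT and 508 ± 91.1 in KO libraries, and Zfp689, the most abundant of cluster 9 per kilobase, at 124 ± 17.3 and 116 ± 10.7. None of these values passed the threshold in the fit of all 7 libraries, and Zfp592 was called lower in the fit without KO 1.

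Zfp296 had the highest level of all members and was not called. Its normalised counts were 2783, 3233, 2757 and 2314 in WT and 2423, 2123 and 1658 in KO libraries (log2 fold change -0.43 ± 0.14, limma adjusted p = 0.0747), with KO 1 inside the WT range. Without a filter on low values it was called lower, and also without KO 1 (-0.55, limma adjusted p = 0.0262). It was not called in the other fits that left out 1 library. Zfp719, the next gene outside the threshold on the higher side after Zfp715, was at 12.4 to 33.6 in WT and 43.6 to 48.1 in KO libraries (0.97 ± 0.33, limma adjusted p = 0.0807). Zfp511 was at 416 ± 42.0 and 426 ± 56.3 (0.03). Zfp507 and Zfp688 were the other members besides Zfp575 with every KO library below every WT library, at log2 fold changes of -0.87 and -0.50 and limma adjusted p-values of 0.188 and 0.176. Zfp143, a general transcription factor that binds many promoters, was at 227 ± 14.5 in WT and 302 ± 23.4 in KO libraries (0.41 ± 0.16, limma adjusted p = 0.124).

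The fold change of the members moved with the GC content of their transcripts, as it did over all genes. When all tested genes were divided into 5 equal groups by GC content of the longest transcript, their median log2 fold changes were 0.13, 0.03, -0.05, -0.06 and -0.09 from the lowest to the highest. The members in these groups had medians of 0.66, 0.35, 0.12, -0.03 and -0.24. The group with the lowest GC content held 21 members with 8 called, where 6.69% of all genes were called higher, the next 15 with 3 called (3.34%), and the middle one 16 with 3 called (2.58%). The groups with the highest GC content held 12 and 15 members with none called, where 1.38% and 1.48% of all genes were called higher. KRAB members had the lower GC content, with a median of 46.0% against 54.6% for members without a box. Split at the members' median of 48.3%, the 34 tested KRAB members at or under it had a median of 0.43 with 11 called, and the 14 above it 0.23 with 2 called. Members without a box had a median of 0.27 over 6 genes with 1 called on the lower side, and -0.15 over 25 genes with none called on the higher side. These splits were made after values had been seen and carry no test. After the GC trend was removed within each library, an alternative chosen after seeing the data, 11 members were called, 10 of them among the 14. Zfp850, Zfp141, Zfp977 and Zfp936 were lost, Zfp771 was gained, and the members' median was 0.26.

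**Figure D4:**
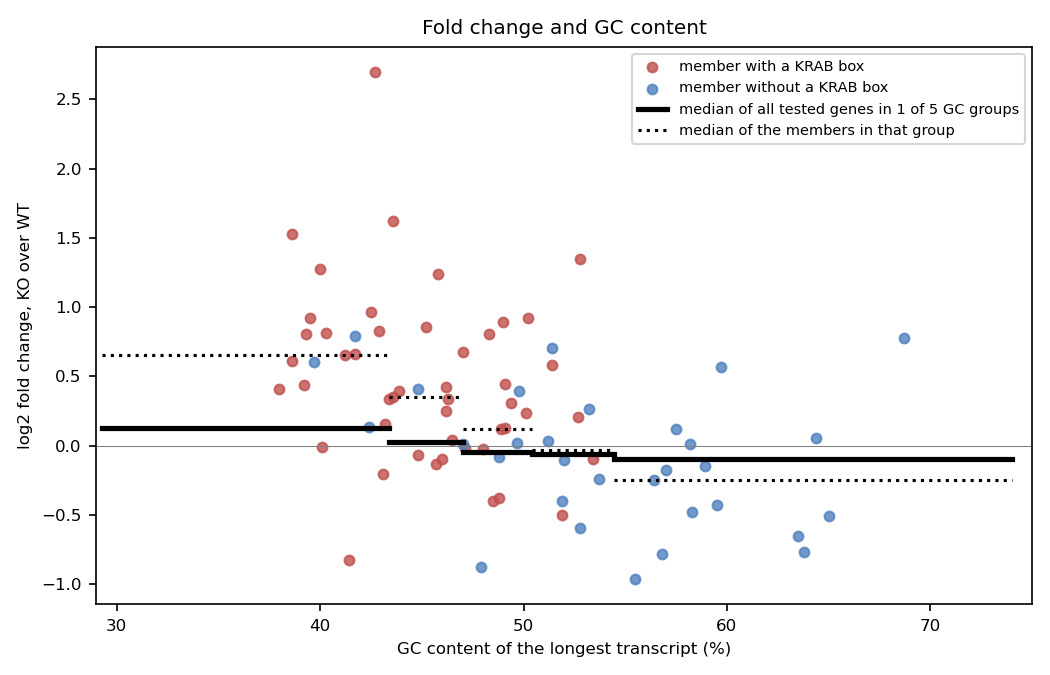
Log2 fold change of KO over WT (vertical axis) against GC content of the longest transcript (horizontal axis, percent) for the tested members, red with and blue without a KRAB box. Solid lines are medians of all tested genes in each of 5 groups by GC content, from 0.13 to -0.09, and dotted lines the members' medians, from 0.66 to -0.24.

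Zfp genes on other chromosomes were looked at only for the comparison. On chromosomes 13 and 17, which hold further KRAB zinc finger clusters, 11 of 62 tested Zfp genes were called higher and none lower (17.7% higher, as for the members, median log2 fold change 0.51). On the other autosomes it was 27 of 179 (15.1%, median 0.28), again with none lower. The other protein-coding genes of chromosome 7 had 40 called higher and 28 lower of 1063 (3.76% and 2.63%), with a median of -0.00. Differences between these groups of genes were not tested.

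A list of 31 tested genes held genes that work with KRAB proteins and Zfp genes of other chromosomes, such as Zfp57 and Zfp708. Of these 31 genes 2 rose and none fell, with a median log2 fold change of 0.14. Over all tested genes 3.09% were called higher and 3.63% lower, so this count is close to the background. Morc3, a chromatin ATPase that acts in silencing, went from 366 ± 41.4 to 545 ± 39.5 normalised counts (log2 fold change 0.58 ± 0.15, limma adjusted p = 0.0232). Smarcad1, a chromatin remodeler, went from 174 ± 7.29 to 275 ± 45.01 (0.65 ± 0.17, limma adjusted p = 0.0249). Trim28, the KRAB corepressor and itself a gene of chromosome 7, was at 452, 473, 496 and 449.5 in WT and 509, 370.0 and 348 in KO libraries (-0.21 ± 0.16, limma adjusted p = 0.461). The KO libraries lay on both sides of the WT range. Setdb1 was at 601 ± 73.7 and 614 ± 68.4. The most abundant genes of the list were Dppa3, a maternal protector of DNA methylation, Rbbp7, the imprint-keeping KRAB gene Zfp57, and the DNA methyltransferase Dnmt1, with log2 fold changes of -0.07, -0.03, -0.01 and 0.20, none called.

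How far the calls rest on single libraries differed between members. Zfp583, Zfp772, Zfp109, Zfp619 and Zfp975 were called whichever 1 of the 7 libraries was left out, and Zfp260 was lost without KO 3 alone (limma adjusted p = 0.0522). The other 8 called members lost the call in 4 to 6 of these fits. The number of called members was 6, 7, 8 and 7 without WT 1, WT 2, WT 3 and WT 4, and 16, 9 and 5 without KO 1, KO 2 and KO 3. With KO 2 and KO 3 both left out, which leaves 1 KO library, none of the members was called, 12 had an unadjusted p under 0.05 and the smallest limma adjusted p was 0.098. With the mean log2 level of the granulosa markers as a covariate none of the members was called either, 1 gene was called in all, and 7 members had an unadjusted p under 0.05. The fold changes of the 14 called members were positive in both fits. With the covariate Zfp109 was at 1.06, Zfp772 at 1.24, Zfp619 at 2.68, Zfp850 at 2.05 and Zfp975 at 1.11, while Zfp936 was at 0.36 and Zfp473 at 0.21. Without KO 2 and KO 3, Zfp109 was at 0.85, Zfp772 at 1.08, Zfp619 at 2.64, Zfp850 at 1.24 and Zfp975 at 1.06, and Zfp936 was at 0.35 and Zfp473 at 0.25. The median of the tested members was 0.44 with the covariate and 0.27 without these libraries, against 0.21.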

How the data were processed

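RNA of 5 pooled secondary-follicle oocytes per library was measured in 4 WT and 3 KO libraries. The deposited values are a signal, each library's gene counts over its size factor: steps between low values gave whole reads in every library up to 1000 reads (100%) and for 99.95% to 100% of all values (tolerance 0.05). Per the submitters' processing notes the authors used cutadapt, FastQC, STAR, DESeq and DESeq2 with GRCm38 (mm10). Versions and the counter: not given in the sources used here. Libraries were made with a Nextera kit, per the labels' protocols, which does not mark strand.

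Groups came from sample titles. Genes that reached 1 in 3 or more libraries were tested with limma 3.58.1 in R 4.3.3 on log2(value + 1), with intensity trend and robust variances, Benjamini-Hochberg adjustment over all tested genes and a threshold of 0.05. Count tests on the recovered reads (edgeR 4.0.16, DESeq2 1.42.0) were alternatives: edgeR called 1334 genes, 15 of them members. Scripts were tested on simulated data. Gene models came from GENCODE M21. A KRAB box and fingers were found by sequence patterns in translated coding sequences. Promoters came from RefSeq (GRCm38.p6).

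The members and gene lists were chosen with earlier results of these data known. Named were all called members, those nearest the threshold on either side, the 5 highest per kilobase in WT, the highest in each cluster and those failing the filter. From the partner list the called and the 4 most abundant genes were named by rule, while Trim28, Setdb1, Zfp568, Zfp143, Zfp60, Zfp575, Zfp507 and Zfp688 were added after their values were seen. Alternatives were other pseudocounts, filters, scalings and tests, leaving out libraries, a granulosa covariate, a replicate block, other cluster gaps and removal of the GC trend.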

Additional observations from a re-analysis of the deposited data

How the results depend on the processing

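Against 1291 called genes and 14 called members, leaving out 1 library gave 594 to 1767 called genes and 5 to 16 called members, with 5 to 14 called higher and 0 to 2 lower. Without KO 2 and KO 3 there were 130 called genes and 0 called members, and the granulosa covariate left 1 and 0, while the members' median log2 fold change was 0.27 and 0.44, against 0.21. The cause was not tested, although the first of these fits has 1 KO library. Pseudocounts of 0.5 and 5, no filter, a minimum of 10, edgeR, DESeq2, TMM scaling and limma without robust estimation called 13 to 16 members and 1198 to 1621 genes. Deviations of same-numbered libraries from their group means correlated at -0.12, 0.03 and 0.02, and WT 4 has no partner. For libraries of different numbers the correlations ran from -0.12 to 0.09. So few libraries cannot settle whether the replicate numbers pair them. With the replicate block 1022 genes and 9 members were called. The fold change of Zfp511, 0.03 and not called, ran from -0.068 to 0.12 with 1 library left out (-0.040 without WT 3, -0.068 without KO 2), and was -0.14 without KO 2 and KO 3 and -0.17 with the granulosa covariate. The median of the cluster that holds Zfp975, 0.66, was 0.74 with a gap of 500 kb and 0.67 with 2 Mb. At this depth members under 10 normalised counts rest on few reads.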
